A study of Mus musculus with 6 samples.

Results

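The adhesion G protein-coupled receptors (adhesion GPCRs) were examined in mouse AML1/ETO 9a (AE9a) leukemia cells, with 10 receptor genes as members: Celsr1, Celsr2 and Celsr3, the latrophilins Adgrl1, Adgrl2 and Adgrl3, Adgrg1 and Adgrg3, and Adgre1 and Adgre5. The members were taken by gene symbol from the 23608 rows of the count table, and all 10 had a row. The set was chosen by measured values of the same comparison, the higher counts of Celsr1 and Adgrl3 after tamoxifen in these libraries, so the difference between oil and tamoxifen is given for the members as a description and not as a test.

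Both groups came from GFP+Lin-c-Kit+ splenocytes of mice carrying Usp18+/f UBCER-Cre AE9a leukemia. The genotype is labelled Usp18+/f in the oil group and Usp18+/D in the tamoxifen group, where Cre is meant to delete the single floxed copy of Usp18. Injections began once the recipients were sick, and cells were sorted 3 days after the first one. Per group, 3 biological replicates were prepared. By the study's methods the leukemia was made by retroviral transduction of fetal liver cells, the recipients were young adult C57BL/6 mice that were irradiated sub-lethally before the secondary transplant, and UBCER-Cre can be activated by tamoxifen in all tissues. No group analysed here received tamoxifen without a floxed allele, so the drug and the deletion cannot be told apart here.

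Adhesion GPCRs are large surface receptors with a long extracellular region, which meets matrix proteins or other cells, joined to a membrane-spanning GPCR region. Most cut themselves at a site just outside the membrane, and the stub that is left behind the cut can act as a built-in agonist of the receptor. In blood cells they are best known as surface markers: Adgrg1 (GPR56) marks hematopoietic stem cells and leukemia stem cells, Adgre5 (CD97) is found on most leukocytes, and Adgre1 encodes the F4/80 antigen of mouse macrophages. The Celsr proteins and the latrophilins are better known from epithelia and the nervous system.

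Each library held between 17118964 and 20741399 counts, and 3 counts corresponded to 0.145 to 0.177 CPM (counts per 1000000 counts of a library, scaled by TMM), a limit that covers counting error only. Libraries carry the numbers of the count table, and values are given in the order oil 1, 3 and 4, then tamoxifen 1, 2 and 4. Usp18 was measured at 9.12, 11.0 and 11.2 CPM with oil and at 15.1, 28.0 and 19.4 CPM with tamoxifen, so the targeted gene was not lower in any library labelled tamoxifen (means 10.4 and 20.9 CPM, edgeR adjusted p-value 0.0739). A count over the whole gene does not separate the deleted part from the rest, and the direction of each difference rests on the labels. Of the markers of the sorted cells, Kit lay between 439.5 and 782 CPM in the 6 libraries, whereas Flt3 had 0 counts in all of them. Cd34 was called higher, with a range of 8.41 to 11.7 CPM in the oil libraries and 41.8 to 134 CPM in the tamoxifen libraries (log2 fold change 3.27). Across the table, 203 of the 11614 genes tested were higher and 31 lower after tamoxifen at an adjusted p-value under 0.05 in edgeR's quasi-likelihood test. Tamoxifen 4 stood apart: without it 2278 genes were higher and 2024 lower.

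Of the 10 members, 7 passed the filter on low counts. Adgrl2 had 0 counts in all 6 libraries, which allows up to 0.177 CPM. Celsr3 had at most 3 counts in any library and Adgre1 at most 10. Celsr2 passed the filter by its counts in the oil group, of 13 to 18, against 4.5 to 10 in the tamoxifen group. By the fit, 2 members, Celsr1 and Adgrl3, were called higher, beside 1.75% of all genes tested, and 0 were called lower, beside 0.267%. The DESeq2 Wald test called 3 higher, Adgrg3 being the third, and 0 lower, beside 5.69% and 1.67% of all genes, and with a replicate block the percentages over all genes were 1.85% and 0.224%. Nothing is read from these counts, since the same comparison chose the set. In 4 of the 7 all tamoxifen libraries lay above all oil libraries (13.3% of the genes tested), in 1 they lay below (11.8%), and in 2 the groups overlapped. The median log2 fold change of the 7 was 0.32, and that of all genes tested was 0.00.

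**Figure D1:**
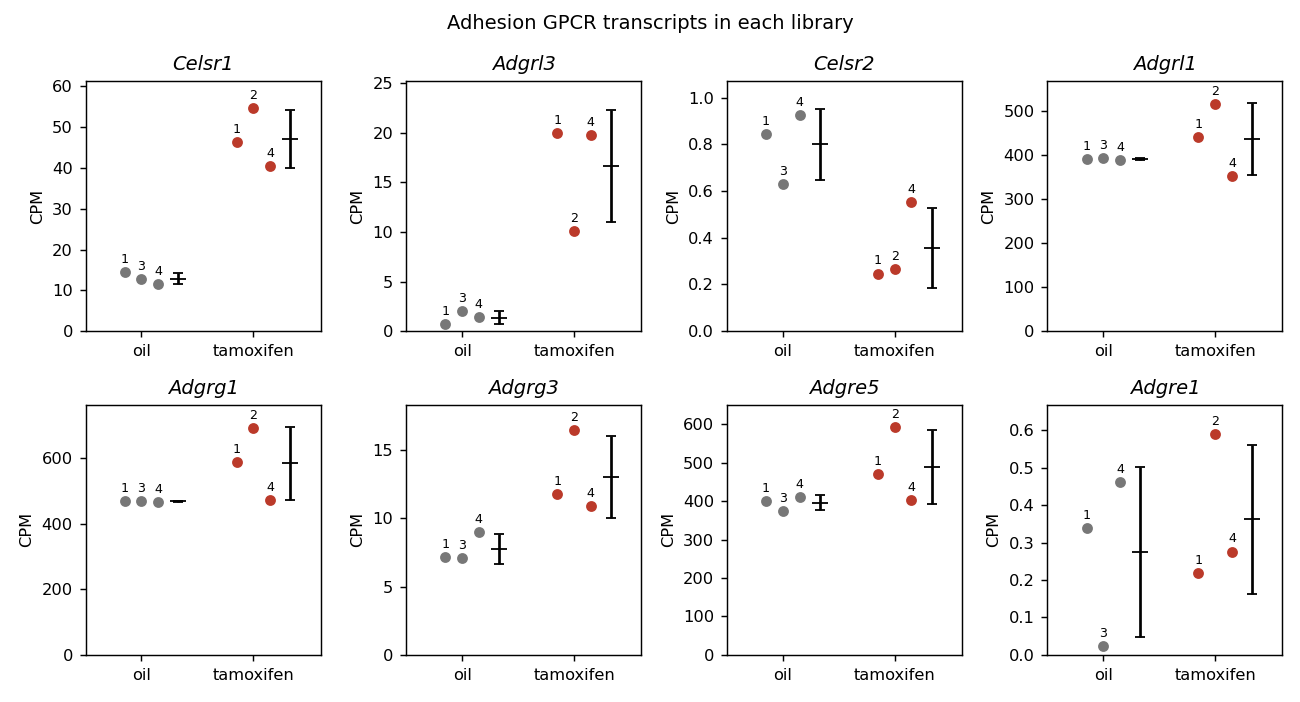
CPM (vertical axes starting at 0) of 8 members in the 3 oil and the 3 tamoxifen libraries. Points carry the library number and bars show the mean ± SD. Celsr1 lies between 11.6 and 14.4 CPM in the oil libraries and between 40.5 and 54.6 CPM in the tamoxifen libraries, whereas Adgre1 is below 0.6 CPM in all 6.

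The Celsr genes encode the mammalian counterparts of Flamingo, giant cadherin-like receptors that align cells within a sheet (planar cell polarity). Celsr1 (minus strand of chromosome 15, 85898929 to 86033777, mm10) stood at 14.4, 12.8 and 11.6 CPM with oil and at 46.5, 54.6 and 40.5 CPM with tamoxifen. The tamoxifen libraries were all high and close together, with tamoxifen 4 at 3.14 times the oil mean and tamoxifen 2 at 4.23 times. The means were 12.9 ± 1.43 and 47.2 ± 7.09 CPM (SD, n = 3 each), a ratio of 3.65, and the fitted log2 fold change was 1.87 (SE 0.15). No other annotated gene shares exon sequence with Celsr1. As in any bulk sample, more cells that express the gene and more RNA per cell cannot be told apart.

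Its relatives were near the counting limit and did not follow it. Celsr2, which acts in ependymal cilia and neurons, had 15, 13 and 18 counts with oil and 4.5, 4.5 and 10 counts with tamoxifen. The oil libraries were the higher ones throughout, at 0.80 ± 0.15 CPM against 0.36 ± 0.17 CPM (SD, n = 3 each), and the fitted log2 fold change was -1.23 (SE 0.50). Celsr3, which guides axons, had 0, 0.5 and 3 counts with oil and 1, 0 and 0 counts with tamoxifen, too few for a comparison.

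The latrophilins are receptors for teneurins and FLRT proteins, and were named for Adgrl1, the receptor of a spider venom toxin that empties nerve endings. Adgrl3 (plus strand of chromosome 5, 81020138 to 81825133) stood at 0.760, 1.99 and 1.39 CPM with oil, from 13.5, 41 and 27 counts. It reached 19.9, 10.1 and 19.8 CPM with tamoxifen, from 363.5, 171.5 and 358.5 counts. All tamoxifen libraries were far above the oil libraries, and the oil libraries varied more, relative to their mean, than those of the other 6 members tested. With means of 1.38 ± 0.61 CPM in oil and 16.6 ± 5.63 CPM in tamoxifen (SD, n = 3 each), the ratio was 12.1 and the fitted log2 fold change 3.56 (SE 0.38). An antisense gene on the other strand, Gm16054, overlaps 8.91% of the exon length of Adgrl3. The strand setting of the counting was not stated, so reads of these stretches cannot be assigned to one of the 2 genes.

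Adgrl1 (plus strand of chromosome 8, 83900105 to 83941954), the latrophilin that these cells express most, differed little. It was at 389, 392 and 387 CPM with oil, a very narrow range, and at 440.4, 514 and 351 CPM with tamoxifen. The groups overlapped, because tamoxifen 4 lay below all oil libraries and the other tamoxifen libraries above them. The log2 fold change was 0.16 (SE 0.13). Genes on the opposite strand cover 15.6% of its exon length.

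The start sites of these 2 latrophilins are shown because the genes are close relatives whose transcripts behaved differently. RefSeq start-site windows (GRCm38.p6) were matched for 7 of the 10 members: Celsr2, Celsr3, Adgrl1, Adgrl2, Adgrl3, Adgrg1 and Adgrg3. The 250 bases before the start are printed 5′ to 3′ on the strand of the gene, at chr8:83899848-83900097 for Adgrl1 and at chr5:81021343-81021592 for Adgrl3, both on the plus strand. Adgrl3 has 3 such windows, and the one printed is the only one that lies almost wholly outside annotated exons (3 of its bases are exonic). Capitals mark matches to the motifs that were searched.
Adgrl1: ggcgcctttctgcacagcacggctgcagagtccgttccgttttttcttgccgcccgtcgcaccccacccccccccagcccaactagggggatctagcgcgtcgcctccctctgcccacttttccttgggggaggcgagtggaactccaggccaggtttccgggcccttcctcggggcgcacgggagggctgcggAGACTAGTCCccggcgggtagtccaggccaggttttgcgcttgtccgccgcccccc
Adgrl3: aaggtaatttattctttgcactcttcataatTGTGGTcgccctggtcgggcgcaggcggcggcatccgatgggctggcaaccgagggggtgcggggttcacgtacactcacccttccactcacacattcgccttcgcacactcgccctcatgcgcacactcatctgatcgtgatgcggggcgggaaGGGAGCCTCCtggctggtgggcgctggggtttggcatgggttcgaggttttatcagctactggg

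Both windows were rich in G and C, at 68.8% for Adgrl1 and 60.0% for Adgrl3 beside a median of 52.4% over all 32817 windows. The motifs searched on both strands were the RUNX site TGTGGT, the GATA site AGATAA, a gamma-activated site, the interferon-stimulated response element, an NF-kB site and the p53 half-site. The Adgrl3 window held 1 RUNX match starting at base -219 from the start and 1 NF-kB match at base -64. These motifs occurred in 14.0% and 17.6% of all windows. The Adgrl1 window held 1 p53 half-site match at base -56, which reads as a match on both strands, and 7.12% of all windows held one. Of the windows not printed, another of Adgrl3, which lies in annotated exons, held 1 interferon-stimulated response element (2.97% of all windows), and that of Adgrl2 held 1 gamma-activated site (7.01%). The GATA site, present in 9.99% of all windows, was in no member window. Matches of different motifs did not overlap. A match is only a run of letters and not evidence of binding.

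Adgrg1 and Adgrg3 lie head to tail on chromosome 8 with 3474 bases between them. Adgrg1, which couples to G proteins and binds collagen, was measured at 470.3, 470.6 and 468 CPM with oil. It stood at 589.8, 693 and 472 CPM with tamoxifen. The groups did not overlap, but tamoxifen 4 exceeded the highest oil library by only about 1 CPM, and the log2 fold change was 0.32 (SE 0.14).

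Adgrg3 (GPR97), a receptor known from granulocytes and B cells, was at 7.15, 7.10 and 9.03 CPM with oil. It was at 11.8, 16.5 and 10.9 CPM with tamoxifen, again with tamoxifen 2 highest and tamoxifen 4 nearest to the oil libraries. The mean was 7.76 ± 1.10 CPM in oil and 13.1 ± 3.00 CPM in tamoxifen (SD, n = 3 each), and the log2 fold change was 0.75 (SE 0.21). Adgrg5, the third gene of this cluster, had at most 1 count in any library.

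Adgre5, the CD97 antigen, binds the complement regulator CD55 on neighbouring cells. CPM values were 402, 374 and 412 with oil and 471, 592 and 403 with tamoxifen, so that tamoxifen 4 fell within the oil range. The log2 fold change was 0.30 (SE 0.14). Exons of Ddx39 on the opposite strand and of a microRNA gene cover 24.6% of the exon length of Adgre5, and Ddx39 itself was abundant, at 350 ± 19.8 CPM in oil and 286 ± 65.5 CPM in tamoxifen (SD, n = 3 each). Adgre1 had between 0.5 and 9 counts in the oil libraries and between 4 and 10 in the tamoxifen libraries, and the groups overlapped.

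**Figure D2:**
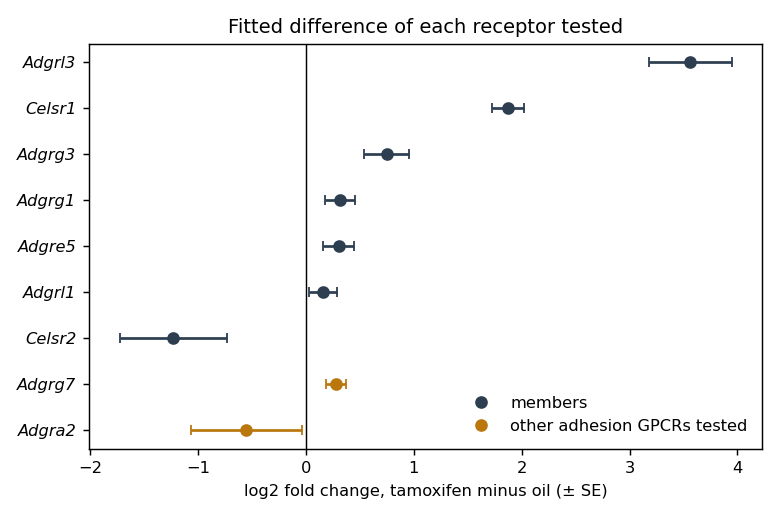
Fitted log2 fold change (tamoxifen minus oil, horizontal axis, bars ± SE) of the 7 members and the 2 other adhesion GPCRs that passed the filter. Adgrl3 at 3.56 and Celsr1 at 1.87 stand to the right of the others, which lie between -1.23 for Celsr2 and 0.75 for Adgrg3.

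The libraries of the tamoxifen group were ordered in different ways by different members. Celsr1, Adgrl1, Adgrg1, Adgrg3 and Adgre5 were highest in tamoxifen 2 and lowest in tamoxifen 4. Adgrl3 was instead lowest in tamoxifen 2, at 7.35 times the oil mean, and reached 14.5 times in tamoxifen 1 and 14.4 times in tamoxifen 4. In log2 CPM, tamoxifen 4 was shifted from the oil mean by 3.82 for Adgrl3 and by 1.65 for Celsr1, but by only 0.01 for Adgrg1, 0.03 for Adgre5 and -0.15 for Adgrl1.

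**Figure D3:**
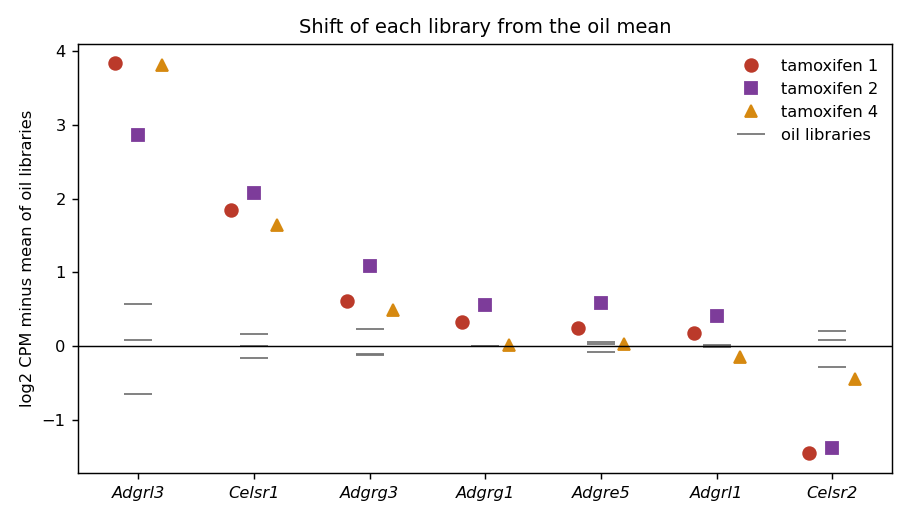
Log2 CPM (prior count 2) of each library minus the mean of the oil libraries, for the 7 members tested. Symbols are tamoxifen libraries and gray bars the oil libraries. Tamoxifen 4 is as high as tamoxifen 1 for Adgrl3 (3.82 and 3.83) and lies at the oil level for Adgrg1 and Adgre5.

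When single libraries were left out, the fitted difference of Celsr1 ran from 1.75 to 1.97 over 6 such fits and passed the threshold in all 6. That of Adgrl3 ran from 3.29 to 3.91 and passed in 3 of 6. It did not pass without oil 1 (log2 fold change 3.29), without oil 4 (3.56) or without tamoxifen 1 (3.41), where 0.0674%, 0.0675% and 0.0936% of all genes tested were called higher. Without tamoxifen 4, 6 members were called higher and Celsr2 was called lower, with a log2 fold change of -1.78, in a fit that called 19.2% of all genes tested higher and 17.1% lower. Nothing is read from these calls and passes, since the same comparison chose the set.

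Per length of merged exons, the receptors fell into a high and a low tier. Adgre5 was highest in the oil libraries at 105 CPM per kb (range 99.5 to 110), followed by Adgrg1 at 86.6 (86.3 to 86.8), Adgrg7 at 83.9 (74.5 to 90.8) and Adgrl1 at 45.4 (45.1 to 45.6). Adgrg1 and Adgrg7 overlapped, and the other neighbours in this tier did not. These 4 receptors made up between 98.0% and 99.2% of the summed level per kb of all adhesion GPCRs in each of the 6 libraries.

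Celsr1 and Adgrg3 came next and could not be separated in the oil libraries, at 1.17 (1.05 to 1.31) and 1.12 (1.03 to 1.31) CPM per kb. In the tamoxifen libraries Celsr1 reached 4.29 CPM per kb (3.68 to 4.96), above the 1.89 (1.58 to 2.39) of Adgrg3. Adgrl3 went from 0.0777 (0.0428 to 0.112) to 0.937 (0.571 to 1.12) CPM per kb, well below Adgrl1 in both groups, which was at 45.4 in oil and at 50.7 (40.9 to 59.9). In percentiles of all genes tested with a single annotated length, Celsr1 moved from 15.4 to 31.3 and Adgrl3 from 0.920 to 11.8. These levels divide by all annotated exons of a gene, 17.75 kb for Adgrl3 and 11.0 kb for Celsr1, and a shorter isoform would be understated.

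**Figure D4:**
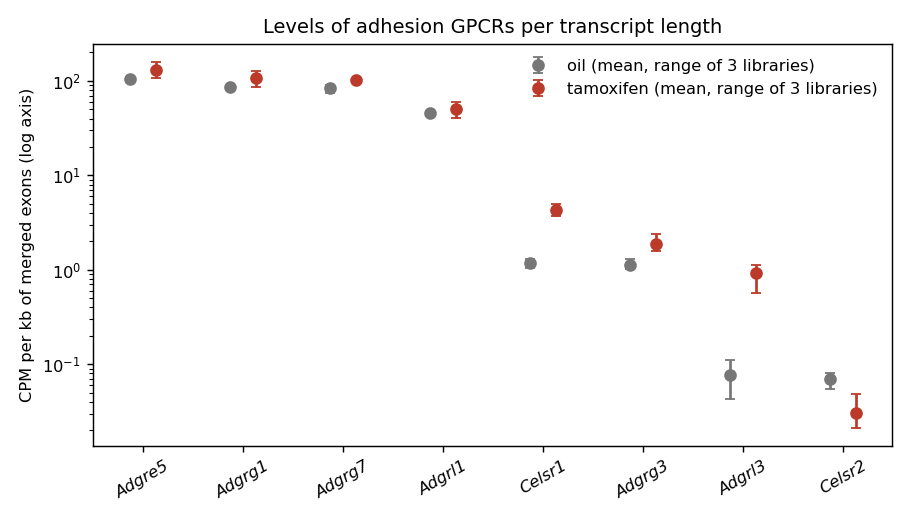
Level per transcript length (CPM per kb of merged exons, log axis) of the 8 adhesion GPCRs tested apart from Adgra2, as the mean and range of the 3 libraries of each group. Adgre5, Adgrg1, Adgrg7 and Adgrl1 lie above 40 CPM per kb, and the other 4 lie below 5.

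The rest of the family was nearly silent. Of 20 other adhesion GPCR genes, 19 had a row, 8 of these had 0 counts in all libraries, and 2 were tested. The exception was Adgrg7 (GPR128; chromosome 16, 56724609 to 56795855, minus strand), a receptor otherwise known from the intestine, which was at 201, 233 and 245 CPM with oil and at 272, 277 and 274 CPM with tamoxifen. The tamoxifen libraries lay above the oil libraries and very close together, and the log2 fold change was 0.28 (SE 0.09; edgeR adjusted p-value 0.174). The other tested gene, Adgra2, differed by -0.55 in log2 (SE 0.52; edgeR adjusted p-value 0.545). Thus 0 of these 2 passed the threshold in edgeR, beside 2.01% of all genes, and DESeq2 called 0 as well. Only Adgrg7 had an unadjusted p-value under 0.05 (0.0182).

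Known partners of the members were described by 4 lists. Their counts stand beside 2.01% of all genes tested that edgeR called and 20.6% that had an unadjusted p-value under 0.05. The lists were chosen with earlier results of these data known, so nothing is read from the counts of any of the 4. Among 13 planar polarity partners of the Celsr proteins, 8 were tested. Their median log2 fold change was 0.10, and 0 passed in edgeR while 3 of the 8 had an unadjusted p-value under 0.05. Vangl2, a membrane protein of the core polarity complex, was at 1.63, 1.50 and 1.34 CPM with oil and at 4.50, 3.87 and 2.46 CPM with tamoxifen. Its groups did not overlap, and its log2 fold change of 1.27 (SE 0.31) had an edgeR adjusted p-value of 0.0852. The next largest differences were those of Scrib (-0.32, adjusted p-value 0.226), a polarity scaffold, and Ankrd6 (0.30, adjusted p-value 0.232), a partner of the Dishevelled proteins. The DESeq2 Wald test called 1 gene of this list, Vangl2 (adjusted p-value 0.0178).

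Of 14 latrophilin ligands, 9 had 0 counts in all libraries and only 2 were tested. The teneurin Tenm4 was abundant, at 415, 399 and 366 CPM with oil and at 308, 264 and 323 CPM with tamoxifen. The tamoxifen libraries were all lower, with a difference of -0.40 in log2 (SE 0.10), where edgeR gave an adjusted p-value of 0.0914 and DESeq2 one of 0.0147. Nrxn2, a neurexin, had a log2 fold change of -0.17 (edgeR adjusted p-value 0.848), with a sign that turned when tamoxifen 2 was left out (0.20). Of the 2 genes 0 passed in edgeR, beside 2.01% of all genes tested. An unadjusted p-value under 0.05 was found for 1, beside 20.6% of all genes tested.

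Ligands and membrane partners of Adgrg1 and Adgre5 comprised 11 genes, of which 8 were tested. The median of their log2 fold changes was 0.39. In edgeR 0 were called higher and 1 lower, and 6 of the 8 had an unadjusted p-value under 0.05, beside 20.6% of all genes tested. The DESeq2 Wald test called 4 higher (Thy1, Itgb3, Cd81 and Cd55) and 2 lower (Itgb1 and Itga5), beside 5.69% and 1.67%. Itgb1, the beta-1 integrin chain, fell from 1342, 1376 and 1283 CPM with oil to 873, 750 and 988 CPM with tamoxifen, for which the log2 fold change was -0.62 (SE 0.11; edgeR adjusted p-value 0.0429). All tamoxifen libraries were lower. The call was lost when any library except tamoxifen 4 was left out, with adjusted p-values from 0.0905 to 0.209. Thy1 (CD90), which CD97 can bind, had a log2 fold change of 2.75 (SE 0.62, edgeR adjusted p-value 0.0697) with 0.675, 0.339 and 0.232 CPM with oil and 2.77, 4.40 and 1.10 CPM with tamoxifen. Itgb3, the beta-3 integrin chain, had one of 1.29 (SE 0.34, edgeR adjusted p-value 0.100) and Tgm2, a transglutaminase, one of -0.84 (SE 0.59, edgeR adjusted p-value 0.428).

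The other 3 genes of this list with a low unadjusted p-value were named after their values were seen. Cd55, the ligand of CD97, stood at 143, 134 and 161 CPM with oil and at 252, 277 and 159.8 CPM with tamoxifen. The groups overlapped through tamoxifen 4, and the log2 fold change was 0.65 (SE 0.19; adjusted p-value 0.127 in edgeR and 0.0194 in DESeq2). The tetraspanin Cd81, a membrane partner of Adgrg1, had 83.6, 91.1 and 108 CPM with oil and 145, 171 and 127 CPM with tamoxifen, without overlap. Its log2 fold change was 0.65 (SE 0.14; adjusted p-value 0.0600 in edgeR and 0.00151 in DESeq2). Itga5, the alpha-5 integrin chain, was lower in all tamoxifen libraries (log2 fold change -0.40, SE 0.10; adjusted p-value 0.0827 in edgeR and 0.0189 in DESeq2). Without tamoxifen 4 all 3 were called in edgeR, in a fit that called 19.2% of all genes tested higher and 17.1% lower.

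Downstream of the receptors, 16 of 18 G protein, exchange factor and arrestin genes were tested. The median log2 fold change was 0.08. In edgeR 0 of them passed, and 2 of the 16 had an unadjusted p-value under 0.05, beside 20.6% of all genes tested. DESeq2 called 0 as well. The largest differences were those of the exchange factor Arhgef11 (-0.68, edgeR adjusted p-value 0.258), the beta-arrestin Arrb2 (0.48, edgeR adjusted p-value 0.263) and the receptor kinase Grk2 (0.39, edgeR adjusted p-value 0.236).

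Markers of other cells were set beside these values. Over all 11614 genes tested, 5809 had a positive log2 fold change and 1.75% were called higher. All 12 mast cell and basophil markers were detected and tested, and 11 had a positive log2 fold change, with 2 called higher, Fcer1a and Tpsb2. The most abundant were the histidine decarboxylase Hdc, the mast cell protease Cma1 and the IgE receptor chain Ms4a2, of which Ms4a2 hardly differed (log2 fold change -0.04). The summed level of the list was 2909 to 3107 CPM in the oil libraries and 4857, 7516 and 3653 CPM with tamoxifen. This is the same order of tamoxifen libraries as for Celsr1, Adgrl1, Adgrg1, Adgrg3 and Adgre5 but not Adgrl3. Among the other marker lists, the macrophage, eosinophil, T and NK cell, erythroid and sorted-cell sums had this order too. The neutrophil, B cell, and endothelial and stromal sums did not. The part of mast cells and basophils in the differences of the members was not tested. The macrophage markers summed to 27.6 to 44.7 CPM in oil and 27.9 to 40.9 CPM in tamoxifen, with 9 of 15 tested and 1 called higher, the heme oxygenase Hmox1. The most abundant of them, the iron exporter Slc40a1, was lower in all tamoxifen libraries (log2 fold change -0.93, edgeR adjusted p-value 0.0811). The eosinophil markers Epx and Prg3 had 0 counts in all libraries, and the whole list of 6 summed to 7.54 to 11.1 CPM in oil and 8.07 to 21.0 CPM in tamoxifen.

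Of the T and NK cell markers, 7 of 10 had 0 counts in all libraries, among them Cd3e, Cd8a, Ncr1 and Prf1. Nkg7 was the only one tested and was called higher (log2 fold change 4.03), and it made up nearly the whole sum of 1.13 to 2.57 CPM in oil and 7.65 to 56.5 CPM in tamoxifen. Neutrophil and B cell markers did not sum to more than 1.21 and 0.878 CPM in any library, with Ly6g, S100a8, Ms4a1 and Pax5 at 0 counts. Erythroid markers were plentiful and overlapped between the groups, at 3906 to 6178 CPM in oil and at 7182, 7517 and 3126 CPM with tamoxifen, again lowest in tamoxifen 4. The globins Hba-a1, Hba-a2 and Hbb-bs led the list. The part of these cells in the members' differences was not tested. Endothelial and stromal markers summed to 67.8 to 77.6 CPM in oil and 57.0 to 118 CPM in tamoxifen, nearly all of it Dcn, with Cdh5 and Pdgfrb at 0 counts.

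The genes whose log2 CPM followed Celsr1 most closely over the 6 libraries were Gstm1 (r = 0.999), Fbln2 (r = 0.998) and Coro2a (r = 0.997). Gstm1 and Fbln2 stayed under 1.5 CPM in every library, and Coro2a, a coronin, went from 10.3 to 13.4 CPM in oil to 80.3 to 177 CPM in tamoxifen. Those nearest to Adgrl3 were Mapkbp1 (r = 0.994), Ei24 (r = 0.988) and Aldh3a1 (r = 0.987). Mapkbp1 was at 14.5, 13.6 and 15.1 CPM and Ei24 at 56.6, 49.4 and 59.8 CPM with tamoxifen, each lowest in tamoxifen 2 as Adgrl3 was. These are descriptions over 6 libraries that share a group difference, chosen as the highest values among all genes tested.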

How the data were processed

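RNA-seq was performed on sorted GFP+Lin-c-Kit+ splenocytes, with 3 oil and 3 tamoxifen libraries. The values deposited by the authors are estimated counts by gene symbol, not scaled between libraries, in multiples of 0.5. Per the submitters' processing notes and the study's methods, STAR, DESeq2 and mm10 were used with paired-end reads; the counting program, annotation and strand setting are not given in the sources used here. Columns number the libraries oil 1, 3 and 4 and tamoxifen 1, 2 and 4, whereas the sample titles number them 1, 2 and 4 and 1, 3 and 4, so oil 3 and tamoxifen 2 were used by the group in the column name only.

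Counts were rounded to whole numbers and analysed in R 4.3.3 with edgeR 4.0.16 (filterByExpr by group, TMM, quasi-likelihood F test, no block). Benjamini-Hochberg adjustment ran over 11614 genes, at a threshold of 0.05. SEs were derived from the F statistics. CPM was computed from unrounded counts and TMM-scaled sizes, and CPM per kb used merged exons of the GENCODE annotation, whose build (GRCm38) is that of mm10. Log2 CPM used a prior count of 2. The p-values measure the spread between the deposited replicates. Alternatives were DESeq2 1.42.0, limma-voom (limma 3.58.1), other size factors and filters, a replicate block, stricter thresholds and each library left out. The scripts were tested on simulated data.

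The members and gene lists were chosen with earlier results of these data known. Named are all members, Usp18, other adhesion GPCRs that passed the filter, partner genes past the threshold and up to 3 per list with the largest absolute log2 fold change, marker genes of the lists, and the 3 genes nearest in pattern to Celsr1 and to Adgrl3. Marker and overlapping genes beyond the 3 most abundant of a list were named after their values were seen.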

Additional observations from a re-analysis of the deposited data

How the results depend on the processing

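Over 13 alternatives (12 for Celsr2, which a filter at a mean of 50 counts removed), the 7 members tested kept the sign of their log2 fold change. It ran from 1.75 to 1.97 for Celsr1 and from 3.29 to 4.20 for Adgrl3. The 1.75 and the 4.20 came from the replicate block, which did not use all libraries to compare the groups. Celsr1 stayed past the threshold in all 13 and Adgrl3 in 10. These passes describe the fits and are no support for a difference, since the same comparison chose both genes. Leaving out single libraries gave 1 to 6 members called higher and 0 to 1 lower, with 6 and 1 without tamoxifen 4, and 1 was called higher at the volcano plot thresholds of the study (0.005 for the adjusted p-value and 0.5 for the absolute log2 fold change).

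Over all genes, DESeq2's Wald test gave 742 higher and 218 lower genes and limma-voom 48 and 6. Without a low-count filter 372 and 61 were called, with a mean of 50 counts required 120 and 17, and at the volcano plot thresholds 7 and 0 in edgeR (2391 genes had an unadjusted p-value under 0.05). DESeq2 at those thresholds, added after seeing the data, called 363 higher and 45 lower. Leaving out single libraries gave 8 to 2278 higher and 0 to 2024 lower, the upper values without tamoxifen 4. The cause of these changes was not tested.

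Among other adhesion GPCRs, leave-one-out fits called 0 to 1 higher, Adgrg7 without tamoxifen 4 (adjusted p-value 0.0328). Of planar polarity partners, DESeq2 called 1 higher, and leave-one-out fits 0 to 2 higher and 0 to 1 lower. Of latrophilin ligands, DESeq2 called 1 lower and leave-one-out fits 0 to 1. Of the ligands and membrane partners of Adgrg1 and Adgre5, DESeq2 called 4 higher and 2 lower, no low-count filter 2 higher, leave-one-out fits 0 to 4 higher and 0 to 2 lower, while 0 were lower with limma-voom, with a mean of 50 counts required and at the volcano plot thresholds. Of the G protein list, leave-one-out fits called 0 to 5 higher and 0 to 2 lower. Each upper value in these ranges belongs to the fit that left out tamoxifen 4. That fit called 19.2% of all genes tested higher and 17.1% lower. The log2 fold change of Nrxn2 ran from -0.72 to 0.20 with single libraries left out, turning sign without tamoxifen 2, and turned sign also with the replicate block (0.23).

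Only numbers 1 and 4 occur in both groups, and same-numbered libraries deviated from their group means with correlations of -0.127 and 0.0616. So few values from so few libraries cannot show whether same-numbered libraries were paired. The numbers of oil 3 and tamoxifen 2 do not occur in both groups, so the replicate block compared the groups through the other libraries alone. For Adgrl3, oil 3 was the highest oil library and tamoxifen 2 the lowest tamoxifen library. The block fit gave 215 genes higher and 26 lower, and Itgb1 was not called (0 lower in its list). Its log2 fold change was 1.75 for Celsr1 and 4.20 for Adgrl3. With a prior count of 0.5 the nearest genes were those given, except that Dglucy took the place of Aldh3a1. Depth limits Celsr2, Celsr3, Adgrl2 and Adgre1.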

Other observations

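Several adhesion GPCRs outside the members and below the filter had low counts in some libraries. Adgrf3, Adgrd1, Adgre4 and Adgra3 had at most 5.5 counts in any library, and Adgrb1 and Adgrg6 had more in a single library each. Adgrb1, a brain angiogenesis inhibitor that binds apoptotic cells, had 11.5 counts in tamoxifen 2, 1.5 in tamoxifen 4 and 0 in the other 4 libraries. Adgrg6, a receptor of Schwann cells, had 9 counts in tamoxifen 4, 3 in oil 3, 0.5 in oil 4 and 0 in the others. None of these genes was tested.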
